A study of Mus musculus with 10 samples.

Results

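The type 2 conventional dendritic cells (cDC2s) of mouse spleen were compared between 2 genotypes, Cd47f/f and Cd47ΔT, across all expressed genes. They account for 6 of the 10 RNA sequencing libraries of the study, 3 per genotype; the other 4 are T cell libraries, 2 per genotype. Cd47f/f mice carry floxed Cd47 alleles and served as controls. In Cd47ΔT mice, by the genotype's name, the floxed gene is deleted in T cells, so the cDC2s compared here should carry an undeleted Cd47. Not given in the sources used here are the Cre line, the deleted exons, the age of the mice, how cells were isolated, and whether replicates came from separate mice. The p-values therefore weigh differences against the variation among these libraries alone, and that variation may be technical. Of the 45706 genes in the table, the 12058 with at least 1 TPM (transcript abundance scaled for gene length and library size) in at least 3 of the 6 cDC2 libraries were tested.

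Conventional dendritic cells take up antigen and present it to T cells. The type 2 subset of the spleen expresses SIRP alpha, CD11b and MHC class II, is best known for priming CD4 T cells, and depends on the transcription factor IRF4 and on Notch2 signalling. CD47 is a surface protein of most cells. Its binding to SIRP alpha recruits tyrosine phosphatases to the phagocyte's receptor and restrains engulfment. In Cd47ΔT mice the cDC2s thus meet T cells in which deletion of this ligand was intended; its RNA was lower but still present in those T cells. The study's title places the work in T cell survival and necroptosis driven by dendritic cells, and the comparison below asks how the dendritic cells themselves differed.

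Levels below are TPM rescaled so that the protein-coding genes outside the mitochondrial genome sum to 1000000 in every library. The rescaling was applied because the share of deposited TPM held by small non-coding RNAs was 16.1% to 21.3% in control and 21.8% to 25.2% in Cd47ΔT libraries. The genotypes did not overlap in that share (difference 4.66 percentage points; exact permutation test, two-sided, p = 0.1, the smallest that 3 against 3 allows). Its part in the results was not tested. Control library 3 stood apart, with the lowest snoRNA share (1.56%, against 7.20% to 8.63% in the other 5 libraries) and the fewest genes above 0 (14172, against 14578 to 15386). Across genes its log2 values correlated with those of the other libraries at r = 0.923 to 0.932, against 0.940 to 0.962 between the others. Log2 fold changes compare Cd47ΔT with control cDC2s after adding 1 to the rescaled TPM, a scale that understates the change of low genes. They are given ± SE with limma's p, adjusted by Benjamini-Hochberg over all 12058 genes, and a gene is called at an adjusted p under 0.05. In counts of list members, rose and fell mean called higher and called lower, as were 0.29% and 0.257% of all genes.

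All 12 markers fixed for cDC2s were expressed in every library. Of these, Itgax, Zbtb46, Flt3 and H2-Ab1 are also on the list of the conventional dendritic cell core, so they do not tell the subset. On the marker list of type 1 conventional dendritic cells, Xcr1 reached at most 0.962 TPM and Clec9a read 3.44 to 8.90 TPM. Batf3 and Wdfy4 of that list read 176 to 212 and 1192 to 1652 TPM. Markers that define T cells were close to absent: Cd3g, Trbc2, Bcl11b and Themis were listed at 0 in all 6 libraries, while Cd3e, Cd247 and Trac reached at most 1.28, 4.69 and 5.98 TPM in any library and Cd5 read 17.3 to 33.7 TPM. Of the neutrophil, NK cell, platelet and basophil markers, 7 of 13, 7 of 12, 5 of 10 and 6 of 10 were at 0 throughout. Several sums of marker lists differed between the genotypes without overlap. The cDC2 list was lower (15980.0 to 18350.0 TPM in control and 14650.0 to 15910.0 in Cd47ΔT libraries), with 9 of 12 genes negative and Itgam, Cd4 and Cd209a called. The plasmacytoid dendritic cell list was higher (148 to 162 and 192.5 to 206 TPM), with 7 of 9 tested genes positive and none called. Siglech, Pacsin1, Spib and Runx2 were higher without overlap (4 of 9, against 8.92% of all genes). Siglech reached at most 2.52 TPM and Ly6d was at 0. The neutrophil sum (75.8 to 105.9 and 43.5 to 75.1 TPM), carried mostly by Mmp9, and the basophil sum (4.41 to 6.94 and 2.503 to 3.63 TPM), carried mostly by Hdc, were lower. Red pulp macrophage genes were detected in all libraries, with sums that overlapped (355 to 548 and 264 to 421 TPM), but 8 of 12 tested were negative (median -0.38, none called) and Spic, Adgre1 and Hpgd were lower without overlap. The monocyte sums overlapped (1672 to 2059 and 1295 to 1681 TPM). The part of other cell types in the results was not tested.

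Few genes were called between the genotypes, and a gene not called is not shown to be unchanged. limma called 66 of the 12058 genes tested (0.547%), 35 higher (0.29%) and 31 lower (0.257%) in Cd47ΔT cDC2s, and 23 and 20 of these changed by at least 2-fold. On the TPM as deposited the split was 30 higher and 46 lower, and the median log2 fold change of all genes shifted from -0.012 to -0.073. At an unadjusted p under 0.05 there were 732 higher and 833 lower genes. All 66 called genes had no overlap between the genotypes, as had 2294 of all genes tested (19%), 1076 higher (8.92%) and 1218 lower (10.1%). The number called depended on single libraries. It was 0, 19 and 13 without control library 1, 2 or 3, and 0, 3 and 2 without Cd47ΔT library 1, 2 or 3. Each of the 66 kept its sign in all 6 of these fits, which the lack of overlap fixed in advance. Their unadjusted p in these fits was at most 0.00177 by limma. The genes were chosen by p on the same libraries, which favours a low p here, so this value is descriptive. In RNA from pooled cells, fewer cells of a kind and less RNA per cell cannot be told apart.

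**Figure D1:**
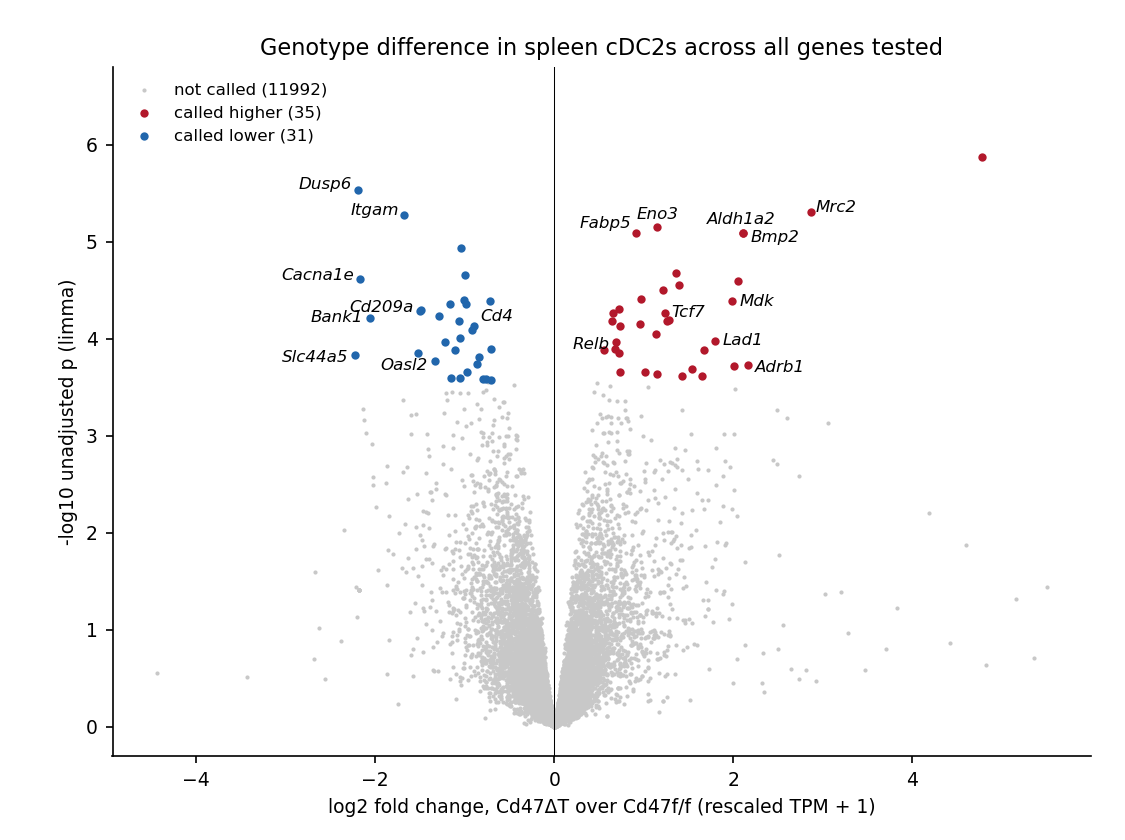
Genotype difference of each of the 12058 genes tested in cDC2s: log2 fold change (Cd47ΔT over Cd47f/f, rescaled TPM + 1) on the x axis and -log10 of limma's unadjusted p on the y axis. Red points are the 35 genes called higher and blue points the 31 called lower; the red point farthest to the right is the pseudogene Gm12435, which was listed at 0 in all 3 control libraries.

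The 12 largest called increases, unnamed gene models and pseudogenes left out, were those of Mrc2, Adrb1, Bmp2, Aldh1a2, Pxdc1, Chst7, Mdk, Lad1, Car2, Igsf3, Nab2 and Lpar3, with log2 fold changes from 1.43 to 2.86. Mrc2 (ENSMUSG00000020695, chromosome 11, 105292643 to 105351139, plus strand) encodes Endo180, a collagen-binding endocytic receptor of the mannose receptor family. It read 7.95, 14.2 and 8.48 TPM in the control libraries and 63.9, 77.9 and 95.98 in the Cd47ΔT libraries, so that the lowest Cd47ΔT value lay several times above the highest control value (log2 fold change 2.86 ± 0.25, adjusted p = 0.0123 by limma). Aldh1a2 (ENSMUSG00000013584, chromosome 9, 71215789 to 71296243, plus strand), whose enzyme makes retinoic acid from retinal, stood at 6.33, 6.94 and 4.73 TPM in controls and at 28.9, 31 and 27.2 in Cd47ΔT cDC2s (2.11 ± 0.20, adjusted p = 0.0123 by limma). Bmp2 (ENSMUSG00000027358, chromosome 2, 133552159 to 133562885, plus strand), a secreted ligand of the bone morphogenetic protein family, stood at 7.59, 6.32 and 6.47 TPM and 32.1, 27.4 and 39.6 TPM (2.11 ± 0.20, adjusted p = 0.0123, limma). The libraries of each genotype lay close together for both genes. Midkine (Mdk), a heparin-binding growth factor, rose from 4.65 ± 1.21 to 21.2 ± 2.82 TPM (1.99 ± 0.23; SD, n = 3 per genotype here and below). Of 22 tested members of the TGF-beta, BMP and retinoid list, these 3 were called higher (against 0.29% of all genes) and none was called lower. Without overlap, 6 members were lower (27.3%, against 10.1% of all genes) and 4 higher (18.2%, against 8.92%). The list's median was -0.17, against -0.012 over all genes, so that most other members did not share this direction.

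Several of the other increases began from a low level. The beta-1 adrenergic receptor gene Adrb1 read 0.316, 0.446 and 0.351 TPM in controls and 4.52, 4.997 and 5.93 TPM in Cd47ΔT cDC2s (2.16 ± 0.32, adjusted p = 0.0424 by limma). The sulfotransferase gene Chst7 rose from 1.17 ± 0.290 to 7.78 ± 1.68 TPM (2.01 ± 0.30) and Pxdc1 from 3.37 ± 0.524 to 17.1 ± 2.38 TPM (2.05 ± 0.22). Lad1, which encodes the anchoring filament protein ladinin, stood at 16.9, 28.2 and 13.98 TPM in controls and 63.9, 68.6 and 71.6 TPM in Cd47ΔT cDC2s (1.80 ± 0.24). Igsf3, an immunoglobulin superfamily gene, rose from 7.75 ± 2.24 to 26.1 ± 4.36 TPM (1.65 ± 0.25), and Lpar3, a receptor for lysophosphatidic acid, from 11.1 ± 2.25 to 31.5 ± 6.88 TPM (1.43 ± 0.22). Nab2, a corepressor of EGR transcription factors, rose from 6.34 ± 1.64 to 20.1 ± 2.39 TPM (1.54 ± 0.23); its locus overlaps that of Stat6, and without the strand setting of the counting the split of their reads is uncertain. The carbonic anhydrase gene Car2 rose from 11.1 ± 1.06 to 38.6 ± 12.4 TPM (1.67 ± 0.23). Car2 is also on the erythroid marker list, where it was the only one of 6 tested genes called, and 5 of the 6 were positive. The summed list overlapped between the genotypes (104.6 to 251 and 162.8 to 388 TPM). Globin RNA was detected in every library (Hba-a2 at 16.2 to 111 and Hbb-bs at 2.89 to 82.7 TPM), while the erythroid gene Car1 was at 0 in all 6. The part of erythroid RNA in the rise of Car2 was not tested.

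The 12 largest called decreases, chosen in the same way, were those of Slc44a5, Dusp6, Cacna1e, Bank1, Itgam, Ifit1bl1, Cd101, Cd209a, Oasl2, Ifi213, Emb and AB124611, with log2 fold changes from -1.17 to -2.22. Itgam (ENSMUSG00000030786, chromosome 7, 128062640 to 128118491, plus strand), the alpha chain of the integrin CD11b/CD18 by which cDC2s are commonly gated, read 108, 97.96 and 105 TPM in the control libraries and 34.1, 36.1 and 25.97 in the Cd47ΔT libraries (-1.67 ± 0.15, adjusted p = 0.0123 by limma). Dusp6 (ENSMUSG00000019960, chromosome 10, 99263231 to 99267489, plus strand), the cytoplasmic phosphatase that inactivates ERK, read 74.8, 63.7 and 89.9 TPM and 15.1, 18.4 and 13.8 TPM (-2.20 ± 0.18, adjusted p = 0.0123, limma). For both genes the highest Cd47ΔT value was well under the lowest control value. Bank1 (ENSMUSG00000037922, chromosome 3, 136053363 to 136326066, minus strand), a scaffold protein known from B cell receptor signalling, read 30.6, 34.8 and 34.4 TPM in controls and 6.08, 11 and 5.58 TPM in Cd47ΔT cDC2s (-2.05 ± 0.25, adjusted p = 0.0249, limma). Bank1 was the only one of 7 tested B cell markers called, and the summed list was also lower without overlap (559 to 695 against 422 to 522 TPM). The sum followed Cd22 (244 to 356 against 117 to 204 TPM), while Ms4a1 (10.02 to 11.8 and 14.2 to 16.2 TPM), Blk and Ighd were higher without overlap, and 4 of the 7 had a positive log2 fold change. Of the 14 listed B cell markers 9 reached at least 1 TPM in some library. Over the 6 libraries Ighm read 228 to 263 TPM and Cd79b 16.4 to 27.7 TPM, while the defining member Pax5 reached at most 0.282 TPM. The part of B cell RNA in the decrease was not tested. Cd209a (ENSMUSG00000031494, chromosome 8, 3743397 to 3748984, minus strand), a C-type lectin related to DC-SIGN, read 125, 125 and 139 TPM and 53.6, 51.7 and 34.04 TPM (-1.49 ± 0.18, adjusted p = 0.0249, limma).

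Cacna1e, the pore subunit of a voltage-gated calcium channel, fell from 24.6 ± 5.30 to 4.65 ± 0.923 TPM (-2.17 ± 0.23) and the choline transporter-like gene Slc44a5 from 11.2 ± 3.94 to 1.54 ± 0.359 TPM (-2.22 ± 0.31). Cd101, an immunoglobulin superfamily receptor of myeloid cells, fell from 29.3 ± 2.997 to 9.72 ± 1.59 TPM (-1.504 ± 0.18), and Emb, whose product embigin carries monocarboxylate transporters to the membrane, from 116 ± 18.9 to 49.2 ± 7.32 TPM (-1.23 ± 0.17). AB124611 fell from 59.3 ± 5.66 to 25.9 ± 2.67 TPM (-1.17 ± 0.14). Oasl2, Ifi213 and Ifit1bl1 are interferon-inducible and are described with that group.

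**Figure D2:**
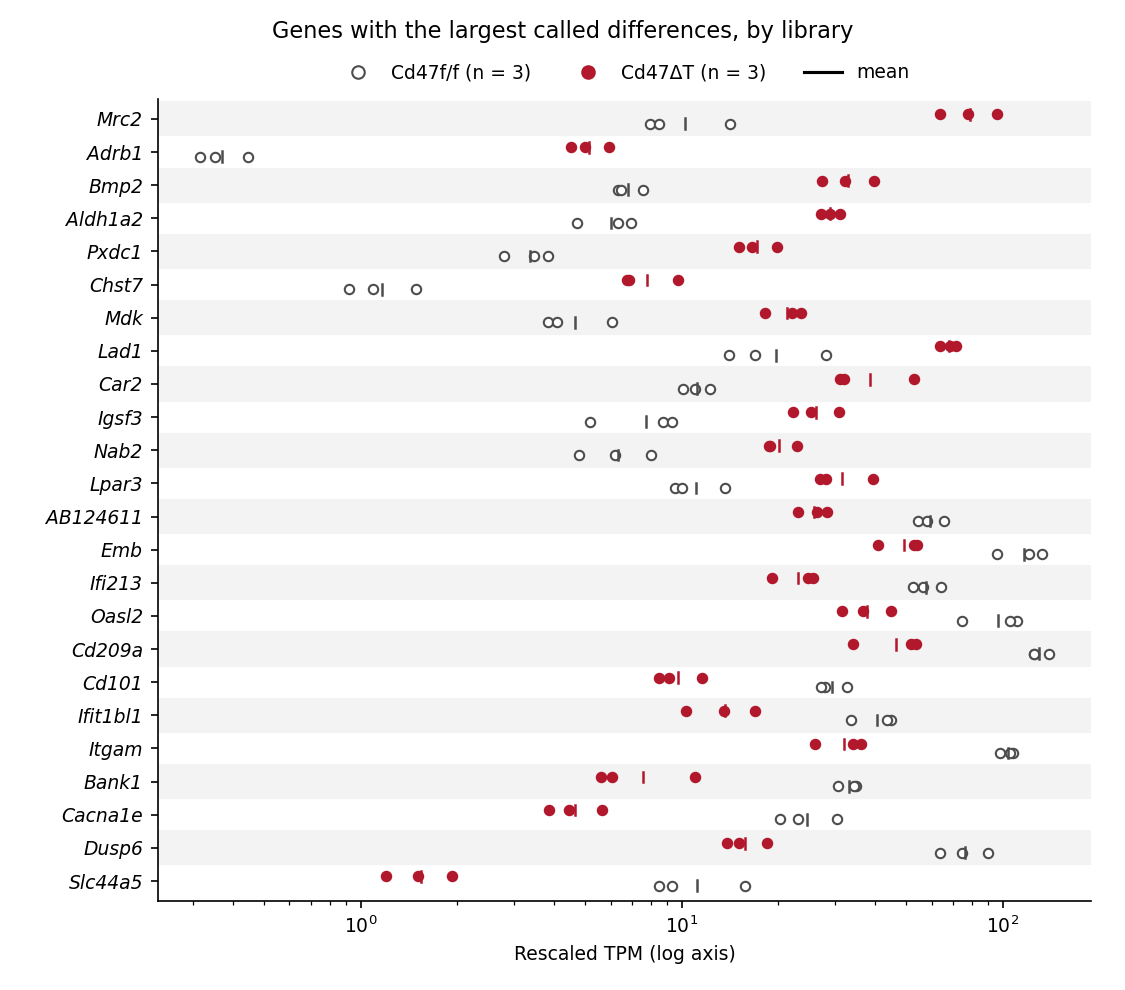
Rescaled TPM (log10 axis) of the 12 largest called increases and 12 largest called decreases (unnamed gene models and pseudogenes left out) in each cDC2 library; each point is 1 library and the colours mark Cd47f/f (3) and Cd47ΔT (3). In all 24 genes the points of the genotypes do not overlap, and Mrc2 runs from 7.95, 14.2 and 8.48 to 63.9, 77.9 and 95.98 TPM.

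Genes of the CD47 and SIRP alpha axis were mostly not called. Cd47 itself (ENSMUSG00000055447, chromosome 16, 49800533 to 49915010, plus strand) read 201, 214 and 219 TPM in control and 233, 236 and 196 TPM in Cd47ΔT cDC2s, with overlapping ranges (0.065 ± 0.10, adjusted p = 0.844 by limma), and its sign turned on the TPM as deposited. In the T cell libraries it read 164 and 275 and 46.5 and 59.95 TPM, so that the effect in cDC2s minus that in T cells was 2.05 (adjusted p = 0.00189 by limma's interaction test). Sirpa, the receptor for CD47, read 628, 663 and 667 TPM and 474, 507 and 591 TPM; the ranges did not overlap, but the difference was not called (-0.32 ± 0.10, adjusted p = 0.225, limma). Of 14 tested genes of this axis, 1 fell and none rose. It was Sirpb1b, a paralog of Sirpa whose product signals through an activating adaptor, which fell from 53.98 ± 6.81 to 24.4 ± 3.26 TPM (-1.11 ± 0.15, adjusted p = 0.0346, limma); its reads cannot be safely separated from those of the near-identical Sirpb1c.

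Most genes that define conventional dendritic cells were not called. Itgax (CD11c) read 598 ± 42.2 in controls and 542 ± 29.5 in Cd47ΔT cDC2s TPM (-0.14 ± 0.085), Zbtb46, the transcription factor of the lineage, 158 ± 10.5 in controls and 156 ± 15.1 in Cd47ΔT cDC2s TPM (-0.022 ± 0.10, its sign turning when single libraries were left out), and H2-Ab1, an MHC class II chain, 14100.0 ± 1319 in controls and 12720.0 ± 597 in Cd47ΔT cDC2s TPM (-0.15 ± 0.095), with adjusted p from 0.561 to 0.954 by limma. Of the 18 tested genes of the core list only Relb was called (higher). In the Notch-dependent, Esam-high programme, 1 of 19 tested genes fell and none rose. It was Cd4, which read 216, 239.8 and 253 TPM in controls and 140.4, 129 and 112 TPM in Cd47ΔT cDC2s, again without overlap (-0.89 ± 0.11, adjusted p = 0.0254, limma). Esam, the adhesion molecule that marks this subset, varied widely in both genotypes (53.7, 54.5 and 28.1 and 63.5, 36.03 and 52.5 TPM; 0.18 ± 0.30, a sign that turned without control library 3), and neither Notch2 (-0.12 ± 0.12) nor Irf4 (-0.30 ± 0.13) was called. In the Esam-low, monocyte-like programme Cd209a was the only one of 18 called. The cDC2 markers that fell thus were Itgam, which is on neither list, Cd4 of the first programme and Cd209a of the second.

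Most type I interferon response genes read lower in Cd47ΔT cDC2s, and a few passed the test. These genes are switched on by interferon alpha and beta through the transcription factor complex ISGF3 and encode antiviral effectors and sensors. All 38 genes on the list were tested; 4 fell (Ifit3, Oasl2, Ifit1bl1 and Irf7), none rose, and 34 had a negative log2 fold change. The median was -0.58, against -0.012 over all genes, and it lay between -0.69 and -0.44 over all alternatives, being -0.69 without control library 3. The genotypes did not overlap in 25 members, all lower (65.8%, against 10.1% of all genes). This list, like all lists here, was chosen with earlier results of these data known.

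Ifit3, an interferon-induced tetratricopeptide protein (ENSMUSG00000074896, chromosome 19, 34583531 to 34588731, plus strand), read 137, 142 and 124 TPM in controls and 66.6, 71.3 and 45.1 TPM in Cd47ΔT cDC2s (-1.15 ± 0.18, adjusted p = 0.0483, limma). Ifit1bl1, of the same family and the same stretch of chromosome 19, read 33.6, 44.8 and 43.5 TPM and 13.6, 16.96 and 10.3 TPM (-1.52 ± 0.21, adjusted p = 0.0354, limma). Reads of Ifit3 and its near-identical copy Ifit3b are hard to tell apart; Ifit3b read 42.1 ± 8.31 in controls and 17.5 ± 5.26 in Cd47ΔT cDC2s TPM (-1.25 ± 0.25). Oasl2, of the 2'-5' oligoadenylate synthetase-like family, read 110.3, 105 and 74.7 TPM and 31.4, 44.9 and 36.6 TPM (-1.33 ± 0.19, adjusted p = 0.0397, limma). Irf7, the transcription factor that amplifies interferon production, read 169.7, 173 and 135 TPM and 68.2, 89.6 and 84.1 TPM (-0.97 ± 0.15, adjusted p = 0.0461, limma); it overlaps Phrf1. In all 4 genes every Cd47ΔT library lay below every control library. Not every member read lower. Usp18 (83.6 ± 6.72 and 87.5 ± 3.02 TPM, 0.069 ± 0.10), named after its values were seen, overlapped between the genotypes.

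Off that list, 2 DNA-sensing PYHIN genes fell. Ifi213 (ENSMUSG00000073491, chromosome 1, 173566283 to 173599274, minus strand) read 56.4, 64.2 and 52.4 TPM in controls and 24.6, 25.6 and 19.04 TPM in Cd47ΔT cDC2s (-1.29 ± 0.16, adjusted p = 0.0249, limma), and its neighbour Ifi206 fell from 71.04 ± 8.04 to 33.7 ± 3.84 TPM (-1.05 ± 0.14; named after its value was seen). They are near-identical copies, and the split of reads between them is uncertain. Of the 21 tested genes of the interferon gamma list 1 fell, the guanylate-binding protein gene Gbp9, from 107 ± 4.67 to 65.3 ± 6.22 TPM (-0.71 ± 0.11, adjusted p = 0.0491, limma), which overlaps other Gbp genes. That list's median was -0.19.

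Windows of 250 bases before the start of transcription were searched on both strands for GAAA and GAAA with any 2 bases between them (TTTC and TTTC on the other strand), the core of the interferon-stimulated response element. It occurred in 978 of 32851 RefSeq promoters (2.98%), and in 304 of the 8757 tested genes with a promoter (3.47%). Of the 38 interferon genes 28 had a promoter in that table, and 13 of these (46.4%) held a match; of the 31 genes called lower 27 had one, and 7 (25.9%) held a match, namely Ifit1bl1, Ifit3, Ifi213, Ifi206, Lgals9, Sirpb1b and Tgfbi. Of the 35 genes called higher 21 had a promoter and 1 held a match (4.76%), that of Bmt2. The windows of Irf7 and Oasl2 held none. The windows of the 4 called interferon-inducible genes with a match are shown from 5′ to 3′ on the gene's own strand, in the GRCm38.p6 build, with the matches in capitals; a match is a description of the letters, not a binding site. They lie at chr19:34583279-34583528 (Ifit3, plus strand, matches starting 156 and 122 bases before the start), chr19:34601969-34602218 (Ifit1bl1, minus strand, 104 bases), chr1:173599273-173599522 (Ifi213, minus strand, 73 bases) and chr1:173491319-173491568 (Ifi206, minus strand, 40 bases).
Ifit3: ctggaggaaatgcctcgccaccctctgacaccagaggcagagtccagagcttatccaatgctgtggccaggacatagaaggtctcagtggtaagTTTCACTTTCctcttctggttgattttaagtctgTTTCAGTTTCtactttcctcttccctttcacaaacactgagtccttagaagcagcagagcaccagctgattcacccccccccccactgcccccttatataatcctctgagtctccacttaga
Ifit1bl1: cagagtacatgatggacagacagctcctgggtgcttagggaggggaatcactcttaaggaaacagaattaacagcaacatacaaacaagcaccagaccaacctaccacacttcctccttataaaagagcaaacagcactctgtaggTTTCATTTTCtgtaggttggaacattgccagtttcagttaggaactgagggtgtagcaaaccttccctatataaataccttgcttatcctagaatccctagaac
Ifi213: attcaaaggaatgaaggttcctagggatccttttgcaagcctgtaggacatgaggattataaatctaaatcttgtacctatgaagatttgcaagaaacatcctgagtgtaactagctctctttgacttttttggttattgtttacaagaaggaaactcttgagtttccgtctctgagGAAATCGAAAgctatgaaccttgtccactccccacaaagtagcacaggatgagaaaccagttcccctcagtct
Ifi206: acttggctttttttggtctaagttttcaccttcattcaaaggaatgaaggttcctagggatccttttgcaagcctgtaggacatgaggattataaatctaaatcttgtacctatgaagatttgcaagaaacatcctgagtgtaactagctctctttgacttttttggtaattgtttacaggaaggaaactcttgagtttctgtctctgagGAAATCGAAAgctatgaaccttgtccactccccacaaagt

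**Figure D3:**
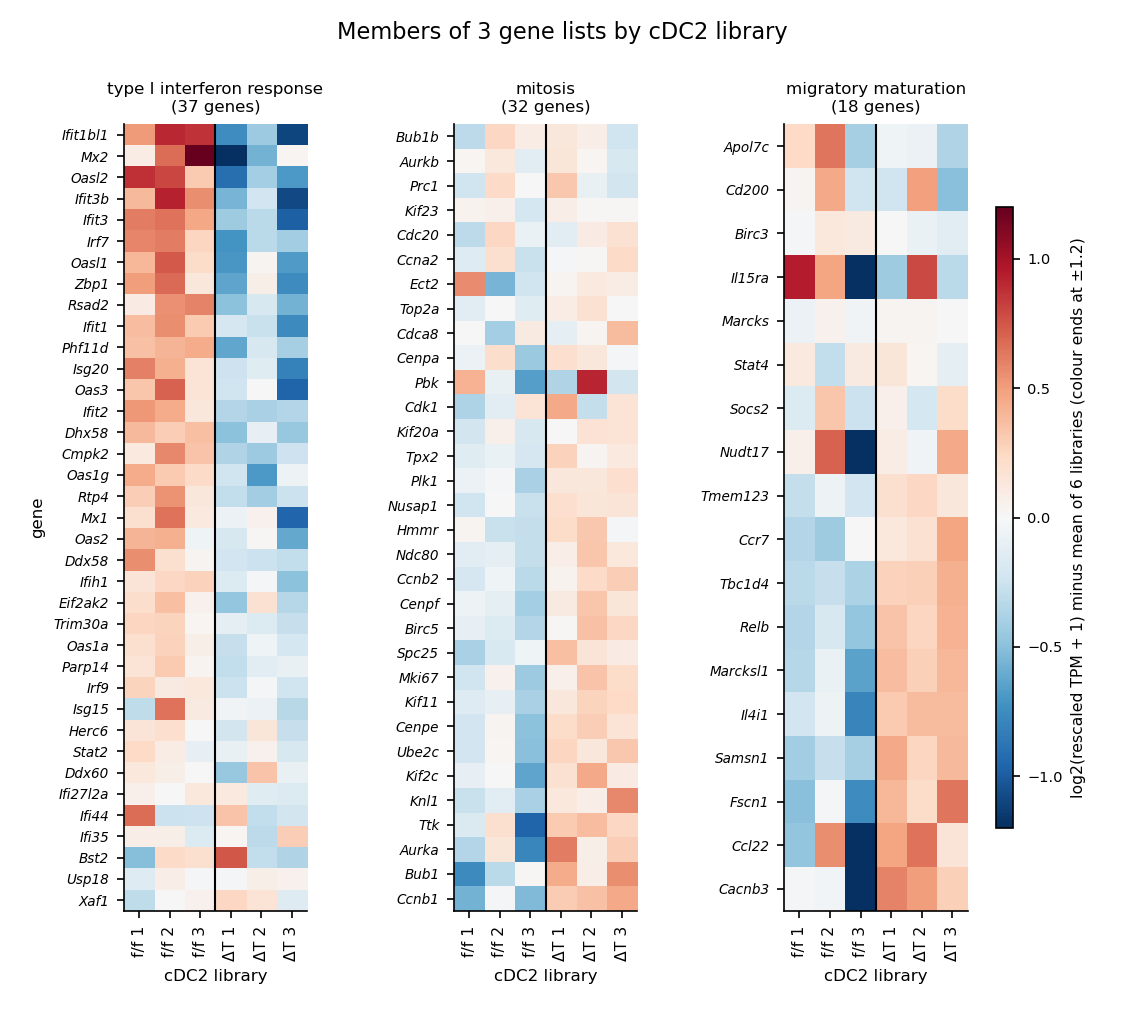
Log2(rescaled TPM + 1) minus the mean of the 6 cDC2 libraries, for tested members of the type I interferon (37 of the 38 genes), mitosis (32) and migratory maturation (18) lists, ordered by log2 fold change; columns are libraries and the colour scale ends at ±1.2. Interferon genes were mostly above their mean in the 3 control and below it in the 3 Cd47ΔT libraries, and the other lists the other way round, with control library 3 the lowest in several maturation genes.

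Some genes of dendritic cell maturation and migration rose. This programme accompanies the passage of dendritic cells to T cell zones and includes CCR7 and the actin-bundling protein fascin. Of 18 tested members 3 rose and none fell, with a median of 0.45 (0.37 without control library 3), and 9 did not overlap between the genotypes, all higher (50%, against 8.92% of all genes). Relb, the NF-kB subunit of the non-canonical pathway on which cDC2s depend, read 383, 427 and 353 TPM in controls and 618, 586 and 651 TPM in Cd47ΔT cDC2s (0.68 ± 0.094, adjusted p = 0.0346, limma). Tbc1d4, a Rab GTPase-activating protein, rose from 335 ± 12.4 to 529 ± 32.7 TPM (0.66 ± 0.08), and Samsn1, an adaptor with SH3 and SAM domains, from 128 ± 6.85 to 214 ± 14.9 TPM (0.73 ± 0.093). Ccr7 itself read 63.6, 60.3 and 81.5 TPM and 89.1, 92.4 and 114 TPM, without overlap, and was not called (0.52 ± 0.15, adjusted p = 0.214, limma). Several members were lowest in control library 3, such as Cacnb3 (33.9, 33.4 and 12.8 TPM in controls and 52.2, 48.9 and 41.95 in Cd47ΔT cDC2s) and Ccl22 (2.61, 6.35 and 0.946 and 5.92, 6.87 and 4.56); these 2 were named after their values were seen. The summed level of the related marker list of migratory dendritic cells was 1685 to 1911 in control and 2171 to 2247 TPM in Cd47ΔT libraries, with Ccl17 at 0 in all 6.

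**Figure D4:**
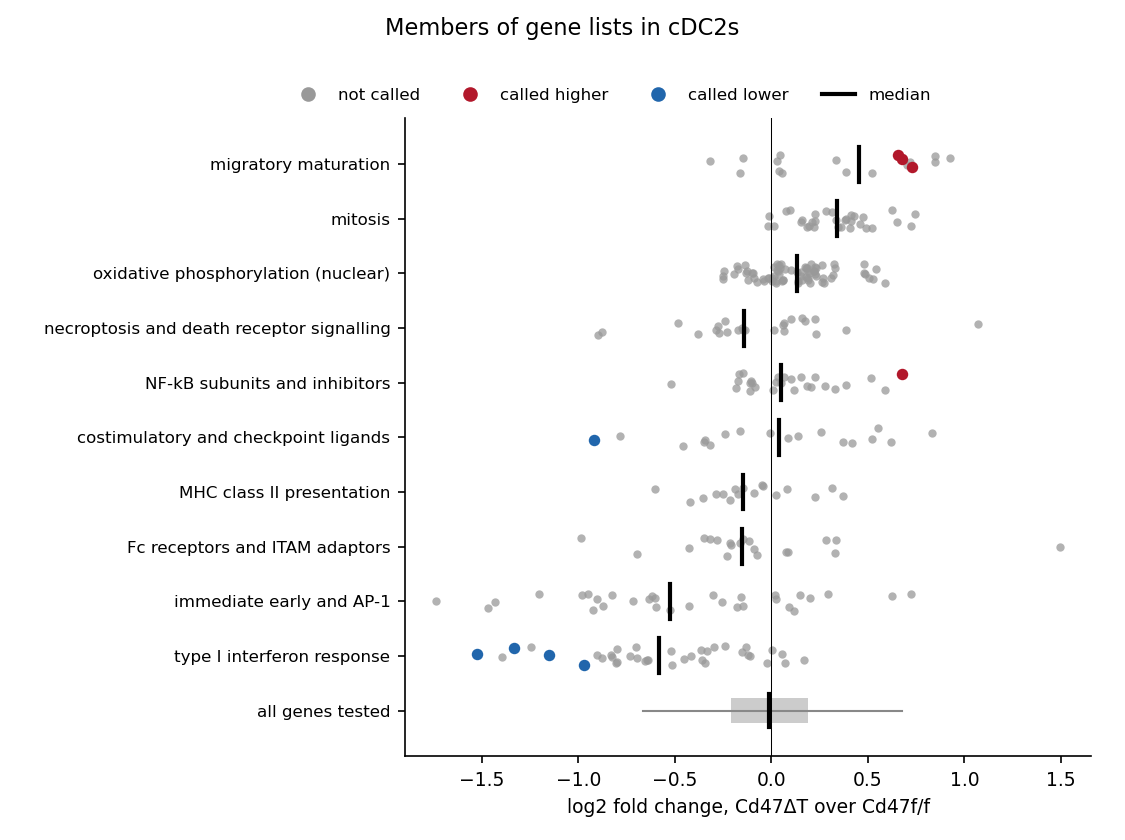
Log2 fold change of every tested member of 10 of the gene lists, 1 row per list, with the list's median as a black bar and called genes in colour; the row of all 12058 genes shows the 25th to 75th percentile as a box and the 5th to 95th as a line. The interferon row is shifted to the left (median -0.58) and those of mitosis (0.34) and migratory maturation (0.45) to the right.

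Costimulation and antigen presentation showed few calls. Of 18 costimulatory and checkpoint ligands 1 fell and none rose: galectin 9 (Lgals9), a ligand of TIM-3, read 60.3, 55.2 and 59.5 TPM and 32.2, 30.9 and 27.9 TPM (-0.92 ± 0.12, adjusted p = 0.0269, limma). Cd86, a ligand of CD28, read 72.8, 83.3 and 87.7 TPM in controls and 113, 103 and 147 TPM in Cd47ΔT cDC2s, without overlap, and was not called (0.55 ± 0.15, adjusted p = 0.185). None of 17 genes of MHC class II presentation was called, with a median of -0.15; 12 were negative, and 7 were lower (41.2%, against 10.1% of all genes) and 3 higher without overlap. Its members with the smallest p were H2-Eb2 (171 ± 12.02 in controls and 221 ± 8.08 in Cd47ΔT cDC2s TPM, 0.37 ± 0.089) and the protease gene Ctsh (426 ± 26.01 in controls and 529 ± 20.3 in Cd47ΔT cDC2s TPM, 0.31 ± 0.08). None of 24 MHC class I genes was called, and that list's median changed sign with the setting. Relb was the only one of 27 NF-kB genes called.

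Genes by which cDC2s could act on T cells through cytokines or death receptors were mostly not called. Of 12 tested cytokine genes only Il16, whose product attracts CD4-bearing cells, was called; it read 227, 216 and 215 TPM in controls and 131, 140.5 and 127 TPM in Cd47ΔT cDC2s (-0.72 ± 0.084, adjusted p = 0.0249, limma) and overlaps Stard5. None of 8 TNF superfamily ligands was called. Tnf, the classic trigger of necroptosis, read 34.5, 41.3 and 56.8 TPM and 27.4, 29.8 and 36.2 TPM, with overlapping ranges (-0.47 ± 0.21, adjusted p = 0.393, limma). Tnfsf14 (LIGHT) read 15.6, 8.06 and 10.2 TPM and 0.789, 2.80 and 2.01 TPM (-2.12 ± 0.38, adjusted p = 0.0713, limma) and Ltb, which signals through the lymphotoxin beta receptor, 295, 282 and 255 and 384, 351 and 391 TPM (0.44 ± 0.09, adjusted p = 0.103, limma); neither overlapped between the genotypes. None of 24 genes of necroptosis and death receptor signalling was called, with a median of -0.14. Of these 7 were lower (29.2%, against 10.1% of all genes) and 2 higher without overlap. Zbp1, a sensor of Z-form nucleic acids that can start necroptosis and is also on the interferon list, read 106, 119.7 and 82.2 TPM and 47.6, 78.4 and 43.9 TPM (-0.88 ± 0.24, adjusted p = 0.181, limma). The kinase gene Ripk3 read 12.7 ± 1.12 in controls and 14.2 ± 0.678 in Cd47ΔT cDC2s TPM (0.16 ± 0.17), and Mlkl, the executor of necroptosis, stayed low at 1.44, 3.75 and 0.919 and 1.005, 1.25 and 2.71 TPM (-0.14 ± 0.47, its sign turning without control library 2 or Cd47ΔT library 1). None of 26 BCL2 family and caspase genes, of 14 TNF receptors or of 9 chemokine genes was called. The smallest p among them belonged to the chemokine gene Ccl3 (16.5, 30.5 and 25.1 and 5.44, 8.72 and 5.92 TPM; -1.68 ± 0.28, adjusted p = 0.0611, limma).

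Among surface receptors, 2 of 28 integrin and adhesion genes fell, Itgam and the tetraspanin gene Cd37 (from 125 ± 13.2 to 67.9 ± 7.62 TPM, -0.87 ± 0.13), and none rose. Of 22 C-type lectins Cd209a fell and none rose. None of 20 Fc receptor and ITAM adaptor genes was called, with a median of -0.15; the activating IgG receptor Fcgr4 read 20.3 ± 1.69 in controls and 9.80 ± 1.36 in Cd47ΔT cDC2s TPM (-0.99 ± 0.18, adjusted p = 0.0773, limma) and the neonatal receptor Fcgrt 49.4 ± 4.66 in controls and 30.04 ± 2.29 in Cd47ΔT cDC2s TPM (-0.70 ± 0.13). None of 37 Toll-like receptor and sensing genes was called (median -0.10), the smallest p being that of Tlr11 (15.7 ± 2.60 in controls and 5.36 ± 1.63 in Cd47ΔT cDC2s TPM, -1.42 ± 0.27, adjusted p = 0.0822, limma). A pair of genes near these pathways fell and were named after their values were seen. They were Mefv, which encodes the inflammasome sensor pyrin (117 ± 13.7 in controls and 57.4 ± 2.86 in Cd47ΔT cDC2s TPM, -1.01 ± 0.12), and Scimp, a membrane adaptor of Toll-like receptor signalling (73.9 ± 8.67 in controls and 34.8 ± 2.81 in Cd47ΔT cDC2s TPM, -1.06 ± 0.13).

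Most cell cycle genes read slightly higher in Cd47ΔT cDC2s, and none was called. Of 32 tested mitosis genes 30 had a positive log2 fold change, with a median of 0.34 (0.27 to 0.39 over all alternatives), and 17 did not overlap, all higher (53.1%, against 8.92% of all genes). Cyclin B1 (Ccnb1) read 25.1, 37.1 and 25.7 TPM in controls and 46.8, 48.4 and 52.1 TPM in Cd47ΔT cDC2s (0.75 ± 0.17, adjusted p = 0.13, limma), and the spindle motor gene Kif11 42.7, 44.2 and 36.05 and 52.3, 57.3 and 56.4 TPM (0.43 ± 0.13, adjusted p = 0.214, limma). Of 35 DNA replication genes 31 were positive, with a median of 0.20 and none called; Prim1, a primase subunit, read 19.9 ± 0.618 in controls and 33.6 ± 4.24 in Cd47ΔT cDC2s TPM (0.72 ± 0.15) and the ribonucleotide reductase gene Rrm2 65.2 ± 3.39 in controls and 92.9 ± 10.9 in Cd47ΔT cDC2s TPM (0.50 ± 0.12).

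Nuclear genes of oxidative phosphorylation had a positive log2 fold change in 55 of 73, with a median of 0.13 and none called; the smallest p was that of the ATP synthase gene Atp5h (528, 584 and 582 and 773, 779 and 807 TPM; 0.48 ± 0.075, adjusted p = 0.0511, limma). Neither the 25 glycolysis and hypoxia genes nor the 26 genes of cholesterol and fatty acid synthesis had a call, with medians of -0.044 and -0.042. In glycolysis the genotypes overlapped in every member of the list, while 8.92% of all genes were higher and 10.1% lower without overlap. On the TPM as deposited 2 glycolysis members were lower without overlap (8%, against 13.5% of all genes). Outside the lists 2 metabolic genes rose by close to the same amount in every library, both named after their values were seen. The muscle-type enolase gene Eno3 read 91.8, 80.7 and 97.2 TPM in controls and 199, 189 and 214 TPM in Cd47ΔT cDC2s (1.15 ± 0.10, adjusted p = 0.0123, limma). Fabp5, a fatty acid-binding protein, read 134, 141 and 125 TPM and 255, 250.2 and 248 TPM (0.91 ± 0.084, adjusted p = 0.0123, limma). Among lysosomal genes, none of 36 called, Psap (prosaposin) was lower and Lamp1 higher without overlap (-0.45 ± 0.07 and 0.54 ± 0.089, adjusted p = 0.0524 and 0.0575, limma).

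Immediate early genes, which respond rapidly to growth factors and to handling of cells, had a negative median whose size depended on control library 3. None of 31 was called, and the median was -0.52, with 22 members negative. It lay between -0.74 and -0.22 over all alternatives. It was -0.22 without control library 3, with 24 members negative. Without overlap, 11 members were lower (35.5%, against 10.1% of all genes) and 2 higher (6.45%, against 8.92%). Egr1 read 397, 380.3 and 807 TPM in controls and 163, 147 and 254 TPM in Cd47ΔT cDC2s (-1.43 ± 0.32, adjusted p = 0.118, limma), and Jun 789, 707 and 1252 and 414, 516 and 478 TPM (-0.92 ± 0.21, adjusted p = 0.12, limma). In both genes control library 3 was the highest of all, and the genotypes did not overlap. Of 16 ERK feedback genes Dusp6 was the only one called, and the list's median changed sign with the setting. Dusp6 did not follow control library 3 alone, since all 3 controls stood at 74.8, 63.7 and 89.9 TPM.

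Of 23 tested members of the calcium list 1 fell, Cacna1e, and none rose. The median was -0.17, with 18 members negative. Without overlap, 6 were lower (26.1%, against 10.1% of all genes) and 1 higher (4.35%, against 8.92%). The intracellular release channel gene Ryr3, off the list and named after its values were seen, read 67.6, 56.1 and 48.5 TPM in controls and 130.4, 157 and 167 TPM in Cd47ΔT cDC2s (1.39 ± 0.15, adjusted p = 0.0238, limma); it overlaps Aven. None of 30 JAK-STAT genes, of 26 efferocytosis and scavenger receptor genes, of 23 heat shock genes, of 23 unfolded protein response genes or of 11 chemokine and migration receptors was called.

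The called genes not yet described fell under no list and were named after their values were seen. Tcf7, which encodes the transcription factor TCF-1, read 93.3, 101 and 79.1 TPM in controls and 206, 186 and 258 TPM in Cd47ΔT cDC2s (1.23 ± 0.15, adjusted p = 0.0249, limma). Tcf7 is also on the T cell marker list, whose sum was 110.7 to 129 in control and 213 to 287 TPM in Cd47ΔT libraries. Tcf7 made up most of that sum and was the only one of 4 tested markers called, and all 4 had a positive log2 fold change. Cd5 read 17.3 to 33.7 TPM over the 6 libraries, while Cd3g, Trbc2, Bcl11b and Themis were at 0 in all 6. The part of T cell RNA in the rise of Tcf7 was not tested. Also higher were Pik3r6, a regulatory subunit of PI3K gamma (12.99 ± 0.806 in controls and 35.04 ± 2.09 in Cd47ΔT cDC2s TPM, 1.36 ± 0.14), Gnas, the stimulatory G protein alpha subunit (440.5 ± 22.7 in controls and 730.5 ± 87.95 in Cd47ΔT cDC2s TPM, 0.72 ± 0.10; it overlaps Nespas), and Ptafr, the receptor for platelet-activating factor (39.2 ± 1.25 in controls and 65.9 ± 4.37 in Cd47ΔT cDC2s TPM, 0.73 ± 0.11). Anpep (aminopeptidase N, CD13) rose from 291 ± 7.04 to 456 ± 31.2 TPM (0.65 ± 0.081), Mreg (melanoregulin) from 137 ± 17.7 to 266 ± 25.97 TPM (0.96 ± 0.12), and the sulfotransferase gene Chst10 from 15.6 ± 1.78 to 38.8 ± 4.08 TPM (1.26 ± 0.16). The histone genes Hist1h2ae and Hist1h2bc rose from 419 ± 59.97 to 817 ± 26.9 TPM (0.97 ± 0.11) and from 305 ± 26.4 to 505 ± 13.98 TPM (0.73 ± 0.088), the split among histone copies being uncertain. The variant histone gene H2afz rose from 464 ± 28.1 to 682 ± 20.2 TPM (0.56 ± 0.077), Aebp2, an accessory gene of Polycomb complex PRC2, from 376 ± 27.6 to 607 ± 47.1 TPM (0.69 ± 0.093), and Haus8, a subunit of the spindle complex augmin, from 192 ± 29.8 to 445 ± 47.6 TPM (1.21 ± 0.14; it overlaps Myo9b). The log2 fold changes of the protocadherin gene Pcdh1, the tropomyosin gene Tpm2 and Bmt2, which encodes an inhibitor of mTORC1, were 1.13 ± 0.15, 1.01 ± 0.15 and 1.15 ± 0.17.

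Genes that fell outside the lists included Tifab, an inhibitor of the TRAF6 adaptor TIFA (117 ± 7.22 in controls and 56.4 ± 2.97 in Cd47ΔT cDC2s TPM, -1.04 ± 0.10), the ubiquitin ligase gene Neurl3 (215 ± 22.4 in controls and 106 ± 5.71 in Cd47ΔT cDC2s TPM, -1.001 ± 0.11) and the keratin gene Krt80 (99.6 ± 3.25 in controls and 49.9 ± 5.91 in Cd47ΔT cDC2s TPM, -0.99 ± 0.12). Tgfbi, an extracellular matrix protein induced by TGF-beta, fell from 248 ± 21.9 to 139 ± 16.4 TPM (-0.83 ± 0.12), and Glrx (glutaredoxin) from 116 ± 8.61 to 70.8 ± 0.911 TPM (-0.71 ± 0.10). Log2 fold changes were -1.05 ± 0.16 for the zinc finger gene Hivep2, -0.79 ± 0.12 for Ripor2 and -0.76 ± 0.12 for the vesicle tethering gene Trappc5. The remaining 2 called genes are not protein coding. The small nuclear RNA gene Gm25360 read 344, 338 and 309 TPM and 1033, 658 and 756 TPM (1.28 ± 0.16), and the processed pseudogene Gm12435 was listed at 0 in all controls and at 22.2, 19.6 and 42.6 TPM in Cd47ΔT libraries.

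The same genotype contrast was fitted in T cells. T cell libraries were made with another kit, so only the difference of the genotype effects is read. Of the 66 genes called in cDC2s 47 passed the T cell filter as well, where limma called 8.79% of all genes tested; 4 of the 47 were called in the same direction (Samsn1, Cd4, H2afz and Car2) and 7 in the opposite one (Itgam, Tifab, Krt80, Cd209a, Tcf7, Glrx and Tgfbi). By limma's interaction test the genotype effect differed between the cell types in 28 of the 47, and in 509 of 10650 genes overall (4.78%). The 47 were chosen on the same cDC2 values that enter this test, which favours a high share, so the 28 and the p-values of these genes are descriptive and are not read against the 4.78%. The count over all genes rested on single T cell libraries: it was 306 without control T cell library 1, and 338 and 266 without Cd47ΔT T cell library 1 or 2. Cd209a fell in cDC2s and rose in the T cell libraries (0.559 and 1.29 TPM in control and 7.04 and 11.04 in Cd47ΔT), and the effects differed by -3.87 on the log2 scale (adjusted p = 0.000224, limma). For Itgam the T cell libraries read 1.499 and 2.42 and 5.38 and 10.1 TPM, a difference between the effects of -3.20 (adjusted p = 0.000574, limma). Tcf7 went the other way, with 1160.0 and 1228 TPM in control and 709 and 749 TPM in Cd47ΔT T cells (1.94, adjusted p = 0.00044, limma). Interferon genes also moved differently: the effects on Oasl2, Ifit3 and Irf7 differed by -1.93, -1.73 and -1.33 (adjusted p = 0.0046, 0.00312 and 0.00478, limma). For Samsn1, Car2, Fabp5 and Relb no difference between the effects was called (-0.20, 0.44, 0.12 and 0.53, adjusted p = 0.769, 0.772, 0.9 and 0.0952, limma), which does not show that they were equal. In the T cell libraries the MHC class II gene H2-Ab1, a gene of antigen-presenting cells, also read higher in Cd47ΔT (7.18 and 8.84 TPM in control and 67.2 and 131 in Cd47ΔT); its part in the opposite calls was not tested.

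**Figure D5:**
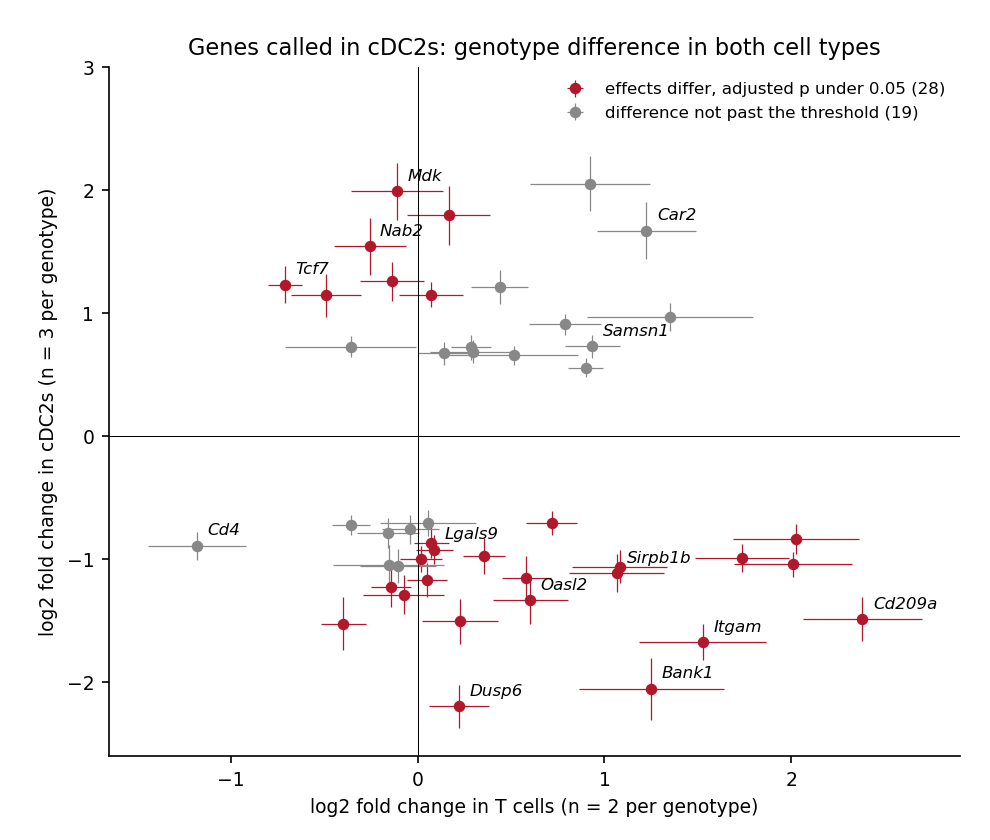
Log2 fold change (Cd47ΔT over Cd47f/f) in T cells on the x axis and in cDC2s on the y axis, for the 47 genes called in cDC2s that passed both filters; bars are ± SE. Red points are the 28 genes whose effects differ by limma's interaction test, among them Itgam, Cd209a and Bank1 at the lower right, and grey points the other 19.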

How the data were processed

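RNA of 6 cDC2 libraries, made with a micro RNA kit and a SMART-seq stranded kit per the labels' protocols, was compared between the genotypes; the 4 T cell libraries were made with other kits. The deposited values are TPM from the authors, made with STAR and RSEM on GRCm38 per the submitters' processing notes, which also name DESeq2 (versions not given). TPM keep no depth, so the counting precision of each value is unknown. Of 45706 genes, 45143 (98.8%) matched GENCODE M21, which gave symbols, classes and positions. No source used here gives the strand setting of the counting, and values of overlapping genes and near-identical copies are uncertain.

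TPM were rescaled to protein-coding nuclear genes (factors 1.35 to 1.55 in cDC2s), filtered at 1 deposited TPM in at least 3 cDC2 libraries, and tested on log2(value + 1) by limma 3.58.1 under R 4.3.3: a linear model per gene with a genotype term, then moderated variances that follow a trend in mean level (two-sided). The interaction was fitted on all 10 libraries, for genes that also passed 1 TPM in at least 2 T cell libraries. Gene lists are described by counts and medians, with no test. Named genes were a fixed set of 13 cDC2 genes, the 12 largest called changes in each direction with a mean of at least 5 in the higher genotype (unnamed models, receptor segments, pseudogenes and mitochondrial genes left out), and up to 4 called or 2 uncalled members of a described list; others are marked. The members and lists were chosen with earlier results of these data known. Replicate numbers are not stated to mark a shared litter or day, so they were not taken as pairs. Deviations from the genotype means correlated at -0.041, 0.057 and 0.115 between same-numbered libraries. Between libraries of different number they correlated at -0.131 to 0.112. So few values cannot settle whether the numbers mark pairs. Promoter sequences are from RefSeq, GRCm38.p6. Values of some single list members are not reported here. The tests were tried on simulated data, in which 39.25% of the genes given a log2 change of 1 were called. For a log2 change of 2 it was 75.9%. Alternatives were other pseudocounts, filters, scalings and trends, 1 fit of all libraries, a replicate block, and leaving out each library. Tables, figures and exact tests used Python 3.11.15, pandas 2.3.3, numpy 2.4.6, scipy 1.17.1 and matplotlib 3.10.9.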

Additional observations from a re-analysis of the deposited data

Results flagged for a closer look

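For 47 genes named in the text, the effect in cDC2s differed from that in T cells by limma's interaction test at an adjusted p under 0.05, over 10650 genes. Many of them were chosen for their call in the same cDC2 libraries, which favours a difference here. Differences are cDC2 minus T cell effects on the log2 scale. The most negative were -3.87 (Cd209a), -3.61 (Fcgr4), -3.55 (H2-Ab1), -3.31 (Bank1), -3.20 (Itgam), -3.10 (Ccl3), -3.08 (Sirpa), -3.05 (Tifab), -3.02 (Tnfsf14), -2.86 (Tgfbi), -2.73 (Krt80) and -2.62 (Ctsh). Of these, Fcgr4, H2-Ab1, Ccl3, Sirpa, Tnfsf14 and Ctsh were not called in cDC2s. Cd22, also uncalled in cDC2s, was at -2.72. Further down were Dusp6 (-2.42), Sirpb1b (-2.18), Scimp (-2.14), Itgax (-1.98), Cd101 (-1.73), Glrx (-1.42), Irf4 (-1.33), Fcgrt (-1.24), AB124611 (-1.22), Emb (-1.08), Neurl3 (-1.02), Lgals9 (-1.01), Cd37 (-0.94), Tnfrsf1b (-0.93) and Psap (-0.82). Among them Itgax, Irf4, Fcgrt, Tnfrsf1b and Psap were not called in cDC2s. For Itgax and H2-Ab1 the T cell log2 fold changes were 1.84 and 3.4, and the cDC2 ones -0.14 and -0.15.

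Interferon-inducible genes differed in the same direction, by -1.93 (Oasl2), -1.73 (Ifit3), -1.73 (Ifit3b), -1.33 (Irf7), -1.21 (Ifi213) and -1.13 (Ifit1bl1). So did the cell cycle genes Kif11 (-1.54) and Rrm2 (-1.49). The effect was more positive in cDC2s for Mdk (2.10), Cd47 (2.05), Tcf7 (1.94), Nab2 (1.80), Bmt2 (1.64), Itgb3 (1.66), Lad1 (1.63), Chst10 (1.40), Ccr7 (1.10), Eno3 (1.08) and Ltb (0.74). Kif11 had a T cell log2 fold change of 1.97 and a cDC2 one of 0.43. In this paragraph Ifit3b, Kif11, Rrm2, Cd47, Itgb3, Ccr7 and Ltb were not called in cDC2s.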

How the results depend on the processing

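Of 12058 genes, 66 were called. The count stayed within 1.5 times of this with pseudocounts of 0.1 (58) and 5 (68), a filter of 5 TPM (81), the TPM as deposited (76), median-of-ratios (75) or quantile (70) scaling and a robust variance trend (73). It was 12 with no filter, 14 without the variance trend, 125 over protein-coding nuclear genes only and 166 in 1 fit of all 10 libraries. Leaving out single libraries gave 0 to 19 calls by limma (1243 to 1483 genes at an unadjusted p under 0.05); fewer libraries leave less power, and no further cause was tested. With the replicate number as a block 0 genes were called (1543 at an unadjusted p under 0.05), a fit with fewer residual degrees of freedom in which the numbers are not known to pair the libraries. Every called gene kept its sign in every alternative that tested it. Without single libraries the lack of overlap fixed this in advance. Of the 800 tested list members 20 were called, against 5 with no filter, 6 without the trend, 40 in 1 fit of all libraries, 0 with the block and 0 to 4 without single libraries. The interaction was called in 509 genes and in 266 to 517 without single libraries, in 473 with the replicate block and in 350 with a pseudocount of 5. The cause of these differences was not tested. The small RNA difference ran from 3.51 to 6.15 percentage points without single libraries, and the mitochondrial one (-1.30, exact permutation p = 0.3) kept its sign.

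Signs turned in 5 genes that were not called. Cd47 was at -0.0022 and Cd5 at -0.0032 on the TPM as deposited. Without single libraries Zbtb46 ran from -0.0998 to 0.0263, Esam from -0.129 to 0.399, Cd5 from -0.1604 to 0.30 and Mlkl from -0.412 to 0.241. TPM carry no depth, so how far counting noise limits low genes such as Mlkl is unknown.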

Other observations

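Of 8 further list members, each among the smallest p-values of its list, limma called none. Tnfrsf9, the costimulatory receptor 4-1BB, read 3.06, 7.17 and 5.64 TPM in controls and 12.7, 14.3 and 19.2 TPM in Cd47ΔT cDC2s (1.42 ± 0.31, adjusted p = 0.117, limma). Tnfrsf1b, the second TNF receptor, read 89.4, 94.4 and 99.3 and 139, 130.1 and 121 TPM (0.46 ± 0.10, adjusted p = 0.11, limma). The anti-apoptotic copies Bcl2a1b and Bcl2a1d, whose reads are hard to separate, read 662 ± 80.8 and 877 ± 53.6 TPM (0.41 ± 0.10) and 428 ± 46.3 and 573 ± 42.6 TPM (0.42 ± 0.10; SD, n = 3). Itgb3, the integrin beta 3 chain, read 10.8 ± 0.932 and 19.9 ± 1.59 TPM (0.83 ± 0.17), and the chemokine receptor gene Ccr6 48.7 ± 10.3 and 75.3 ± 6.54 TPM (0.63 ± 0.16). The cytokine receptor chain Il6st (gp130) read 183 ± 6.75 and 141 ± 4.07 TPM (-0.37 ± 0.082) and the kinase gene Jak2 306 ± 12.1 and 389 ± 14.4 TPM (0.34 ± 0.076). In each of these 8 genes the values did not overlap between the genotypes, as in 19% of all genes tested. Their choice by a small p favours this.

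Among small non-coding RNAs 40 snoRNA genes were tested and none was called; their median log2 fold change was 0.42, and 0.054 without control library 3, the library with the low snoRNA share. The 22 snRNA genes had 1 call, Gm25360, and a median of 0.12 (-0.034 without that library), and the 14 genes of the class misc_RNA none and a median of 0.61 (0.53 without it). The whole set of genes had a median of -0.012.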
